A study of Mus musculus with 6 samples.

Results

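Netrins and Slits are secreted guidance ligands, and the genes described here are 10 ligand and receptor genes of these systems in the lung of the mouse embryo at stage E11.5: the ligand genes Ntn1, Slit1, Slit2 and Slit3 and the receptor genes Dcc, Neo1, Unc5b, Unc5c, Robo1 and Robo2. The genes were chosen by name, as a pathway, with the regional differences of these same arrays already known. Those differences are therefore given as a description, without p-values for the 10 genes. RNA from dissected tissue was hybridised to 6 arrays, 3 for each of 2 regions. For the branching region, tissue of the left and the right lung was used. For the non-branching region, the main bronchi were used with some of the trachea. The labels name no genotype or treatment, and they do not say whether the 3 samples of a region came from separate embryos or litters, so the spread between arrays may be technical. A member was any probe set, a group of short oligonucleotides designed against one transcript, whose only gene symbol in the platform annotation was 1 of the 10. Of the 12422 probe sets that are not controls, 6 met this rule, and they read 5 of the 10 genes. These were Ntn1, with 2 probe sets, and Dcc, Neo1, Unc5c and Robo1, with 1 each. The annotation paired no probe set with Slit1, Slit2, Slit3, Unc5b or Robo2 alone, so those 5 genes were not analysed here and the only ligand measured was netrin-1.

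Netrin-1 is a laminin-related secreted protein that attracts cells carrying DCC or its relative neogenin and repels cells carrying UNC5 receptors, alone or together with DCC. Slit proteins act through Robo receptors, chiefly as repellents. Both systems are best known from axon guidance, and in epithelial organs netrins and their receptors also take part in shaping branches, with netrins found in the basement membrane around the stalks of lung buds. DCC and UNC5 proteins are in addition known as dependence receptors, which can signal cell death when no ligand is bound.

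The deposited values of the arrays were already on a common level, judged from the values alone. Medians lay between 212 and 229, and means without the outer 2% at each end were 499.7 to 499.9. Signals are on a linear scale, and their precision is limited by there being 3 arrays per region. A signal of 147, the 95th percentile of 114 readings of controls for bacterial and yeast RNA, served as background. Several epithelial genes gave signal above background in both regions, among them Cdh1, the E-cadherin gene (mean signal 928.9 ± 167 in branching, against 891.6 ± 146 in non-branching, with n = 3 each and the SD after the sign), and Cldn6, a claudin gene (1314 ± 115 in branching, against 856.7 ± 93.3 in non-branching, limma adjusted p = 0.0647). Others did not: Epcam, Spint2 and Krt19 were each at background on 5 of the 6 arrays. Non-branching replicate 2 had the highest median of the control probe sets, 78.8 against 19.8 to 40.7 on the other 5 arrays. Each regional difference is the mean log2 signal in branching minus that in non-branching. Its standard error comes from the limma fit across all probe sets. Called means an adjusted p under 0.05 over the 9316 probe sets that were tested.

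Among the 5 genes measured, Unc5c was the one with a regional difference larger than the spread between arrays, and it was lower in branching. Ntn1 and Neo1 were well above background in both regions with overlapping values, and Robo1 and Dcc were near or below background. Of the 6 member probe sets, all 6 passed the filter on dim probe sets and 1 was called. Of all probe sets tested, 2.03% were called. The 3 branching values lay entirely above or below the 3 non-branching values for 1 of the 6 members, a pattern shown by 20.8% of all probe sets tested. The difference was negative for 5 of the 6, with a median of -0.14, against a median of -0.0046 over all probe sets tested.

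**Figure D1:**
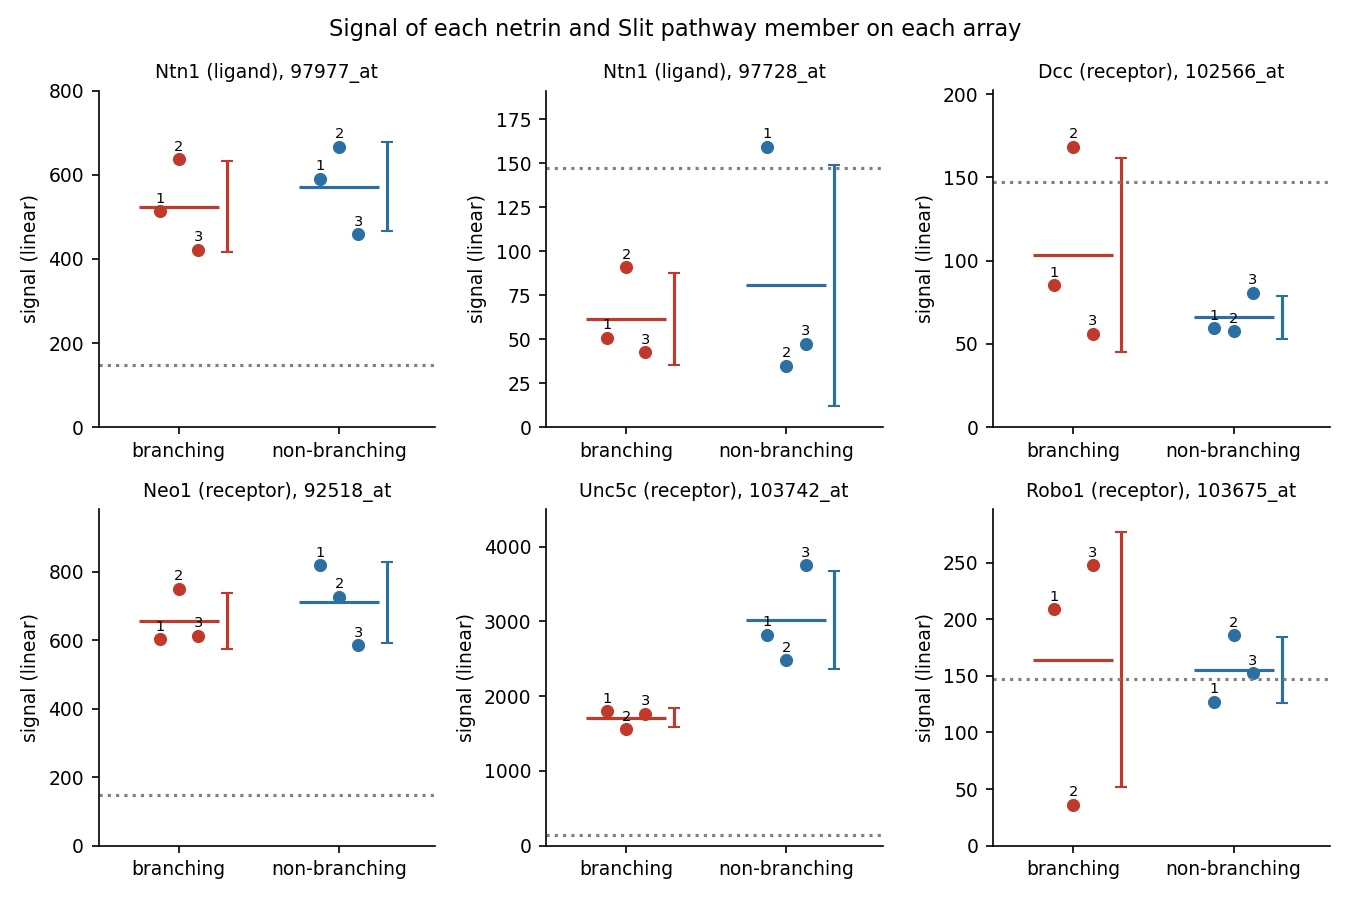
Linear signal of the 6 member probe sets on each array, with branching arrays at the left and non-branching arrays at the right of each panel. Points are arrays labelled by replicate number, horizontal lines are means of 3 arrays, bars are the SD and the dotted line is the background level of 147. The 2 regions are apart for Unc5c and overlap for the other 5 probe sets.

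Ntn1 encodes the secreted ligand netrin-1. Its brighter probe set, 97977_at, read 513.1, 637.6 and 421.8 on branching replicates 1 to 3, against 590.8, 667.0 and 458.4 on non-branching replicates 1 to 3. All 6 arrays were above background, and the values of the 2 regions were interleaved. The means were 524 ± 108 in branching and 572 ± 106 in non-branching (± SD, 3 arrays each), and the log2 difference was -0.13 ± 0.22 (SE). Its 95% interval ran from -0.64 to 0.38, and differences inside that range could not be resolved with 3 arrays per region.

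The second Ntn1 probe set, 97728_at, was dim. It read 50.8, 91.1 and 42.6 in branching, against 159.5, 35.0 and 47.5 in non-branching. Non-branching replicate 1 was the single array above background, and on the log2 scale the probe set's mean of 5.93 lay just inside the filter on dim probe sets, also 5.93 when rounded. The array with the highest signal on the brighter probe set, non-branching replicate 2, had the lowest signal on this one. No fold is given for this probe set, since both regions had means below background, and the ligand is represented below by 97977_at.

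Unc5c encodes a repulsive netrin receptor with a cytoplasmic death domain. It read 1801.7, 1562.6 and 1766.8 on branching replicates 1 to 3, against 2824.8, 2484.7 and 3753.6 on non-branching replicates 1 to 3. Every branching value lay below every non-branching value, with 1801.7 as the highest in branching and 2484.7 as the lowest in non-branching. The means were 1710 ± 129 in branching and 3021 ± 657 in non-branching (± SD, 3 arrays each), so the spread was wider in the non-branching region, where replicate 3 was highest. The log2 difference was -0.80 ± 0.15 (SE), 1.74-fold lower in branching, with a 95% interval from -1.15 to -0.45. Among all 9316 probe sets tested, 6.6% had a difference at least as negative and 12.0% one at least as large in size.

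The call of Unc5c depended on the arrays and on the processing. Its sign could not be changed by leaving out 1 array, since the values of the 2 regions did not overlap. With 1 array left out, Unc5c was called in 1 of the 6 fits, the one without non-branching replicate 2, where the difference was -0.93. It lost its call without branching replicate 1 (-0.84), branching replicate 2 (-0.74), branching replicate 3 (-0.83), non-branching replicate 1 (-0.84) and non-branching replicate 3 (-0.63). It also lost its call with arrays centred on their median (-0.76), with no filter on dim probe sets (-0.80) and with no variance trend.

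**Figure D2:**
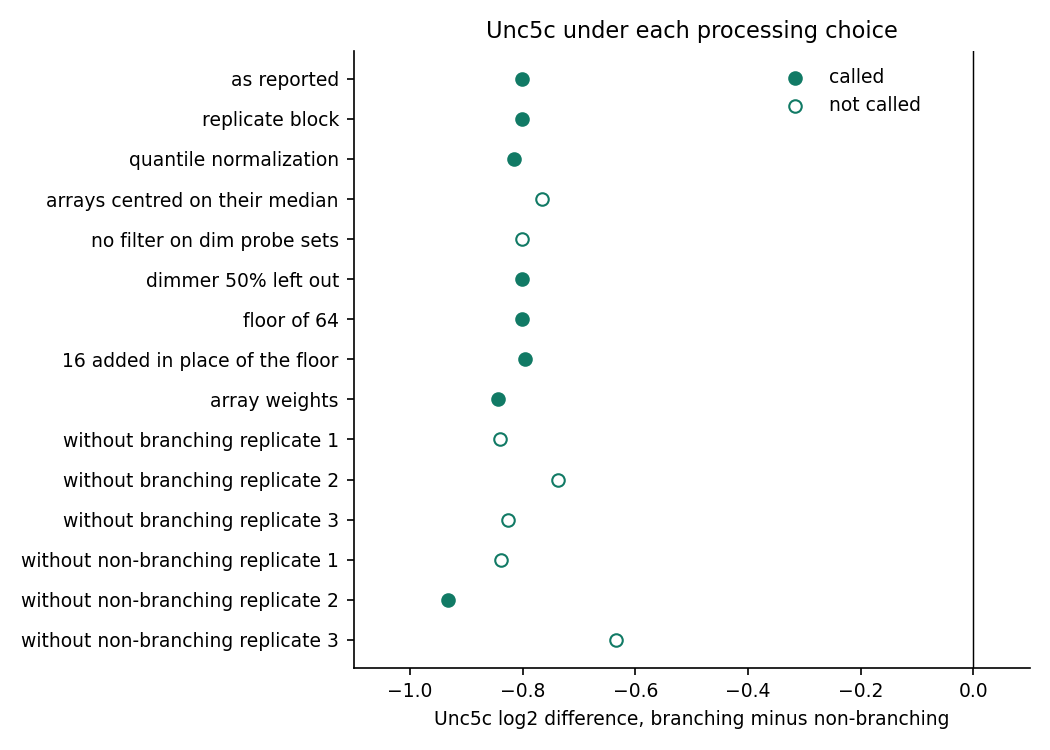
Log2 difference of Unc5c, branching minus non-branching, as reported and under 14 alternatives. Filled points are settings in which Unc5c was called at an adjusted p under 0.05 and open points are settings in which it was not. Every point lies between -0.93 and -0.63, and the omissions of single arrays hold 5 of the 7 open points.

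Markers of several tissues moved with the region on the same arrays. In these samples of whole tissue, fewer cells of a type and less RNA per cell cannot be told apart. Of 10 mesenchymal genes tested, 5 fell in branching and the other 5 did not pass, and the summed signal of the 10 was 16711 to 17057 on branching arrays, against 30920 to 31925 on non-branching arrays. Its brightest members were the type I collagen genes Col1a2 and Col1a1. Foxf1, a forkhead factor gene of the lung mesenchyme, had higher values on all branching arrays (572 ± 34.5 in branching, against 244 ± 139 in non-branching, log2 difference 1.42) but was not called (limma adjusted p = 0.145), and it is named after its values were seen. Of 7 smooth muscle genes tested, 5 fell, with a summed signal of 4919 to 5271 in branching and 9928 to 11292 in non-branching. Smtn, a smooth muscle actin-binding protein gene, was at background on all 6 arrays. The brightest of this list were the actin genes Actg2 and Acta2, with Actg2 read by a less specific probe set.

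The neuronal and neural crest list summed to 6052 to 6586 on branching arrays, against 7213 to 7578 on non-branching arrays, with 1 of 10 tested genes called. That gene was Sox10, a transcription factor gene of neural crest and glia, which fell by 1.05 ± 0.15 on the log2 scale (limma adjusted p = 0.00974). Tubb3, a neuronal tubulin gene and the brightest of the list, was read by a less specific probe set and did not pass (0.16, limma adjusted p = 0.563). Dcx, the doublecortin gene of young neurons, was higher on all branching arrays (476 ± 61.7 in branching, against 183 ± 95.9 in non-branching, log2 difference 1.495) but was not called either (limma adjusted p = 0.0777), and it too is named after its values were seen. Of the 16 genes with a probe set, 7 were at background on all arrays, among them the neuronal genes Nefl, Elavl3, Elavl4, Phox2a, Prph and Snap25 and the receptor tyrosine kinase gene Ret. Of 11 endothelial genes, 1 fell and 10 were not called, with sums of 4965 to 5876 in branching and 6795 to 7068 in non-branching. Vwf was the called gene (52.0 ± 14.8 in branching, against 383 ± 88.8 in non-branching, limma adjusted p = 0.00851). It was at background on all 3 branching arrays. The brightest genes of the list were Eng, encoding endoglin, and Sox18, both uncalled. Of 7 cardiac genes tested, 2 fell, and the list summed to 2647 to 2806 in branching and 4352 to 4988 in non-branching. Its brightest members were Tnni1 and Actc1, with Actc1 read by a less specific probe set. Myh6 and Nkx2-5 were at background on all arrays. Myl7 (mean signal 428.9 in branching, against 591.5 in non-branching) and Nppa (438.9, against 525.4) were above background on all 6. Tnnt2 (130.8, against 255.2) was at background on 2 branching arrays and on 0 non-branching arrays.

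Of 15 epithelial genes tested, 0 were called by limma, with sums of 7393 to 8319 in branching and 6606 to 7030 in non-branching. An unadjusted limma p under 0.05 was found for 4 of the 15, and for 1362 of all 9316 probe sets tested. These 4 genes went both ways. Cldn6 and Sftpc were higher in branching (log2 differences 0.62 and 1.99). Foxa2 and Sox2, the latter read by a less specific probe set, were lower (-0.62 and -1.28). Of 2 mesothelial genes tested, Upk3b and Wt1, neither was called, and the list summed to 1111 to 1387 in branching and 960 to 1224 in non-branching. Of 7 red blood cell genes, 3 rose, with sums of 136447 to 151818 in branching and 88502 to 95761 in non-branching. The embryonic globin genes Hbb-y and Hba-x led in signal, with Hbb-y read by a less specific probe set. The part of these lists in the difference of Unc5c was not tested.

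Neo1 encodes neogenin, a relative of DCC that binds netrins and also the repulsive guidance molecules. It read 603.1, 750.9 and 614.1 in branching, against 819.9, 728.1 and 586.0 in non-branching. The lowest and the highest of the 6 values were both from non-branching arrays, so the branching values lay inside the non-branching range. The means were 656 ± 82.3 in branching and 711 ± 118 in non-branching (± SD, 3 arrays each). The log2 difference was -0.11 ± 0.19 (SE), and its 95% interval ran from -0.53 to 0.31.

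Dcc encodes the founding attractive netrin receptor. It read 85.2, 168.5 and 56.2 in branching, against 59.4, 57.7 and 80.7 in non-branching. Branching replicate 2 was the only array above background, and the other 5 overlapped between regions. The means, 103 ± 58.3 in branching and 65.9 ± 12.8 in non-branching (± SD, 3 arrays each), were both below background, so no fold is given and no regional difference was measurable with this probe set.

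Robo1, a receptor gene for Slit ligands, read 208.7, 36.1 and 247.7 in branching, against 127.0, 185.8 and 152.3 in non-branching. Branching replicate 2 and non-branching replicate 1 were at background, and the non-branching values lay inside the branching range. The linear means were 164 ± 113 in branching and 155 ± 29.5 in non-branching (± SD, 3 arrays each), while the log2 difference was -0.32 ± 0.69 (SE), so the sign depended on the scale. Without branching replicate 2 the log2 difference was 0.57. Its 95% interval ran from -1.88 to 1.25.

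**Figure D3:**
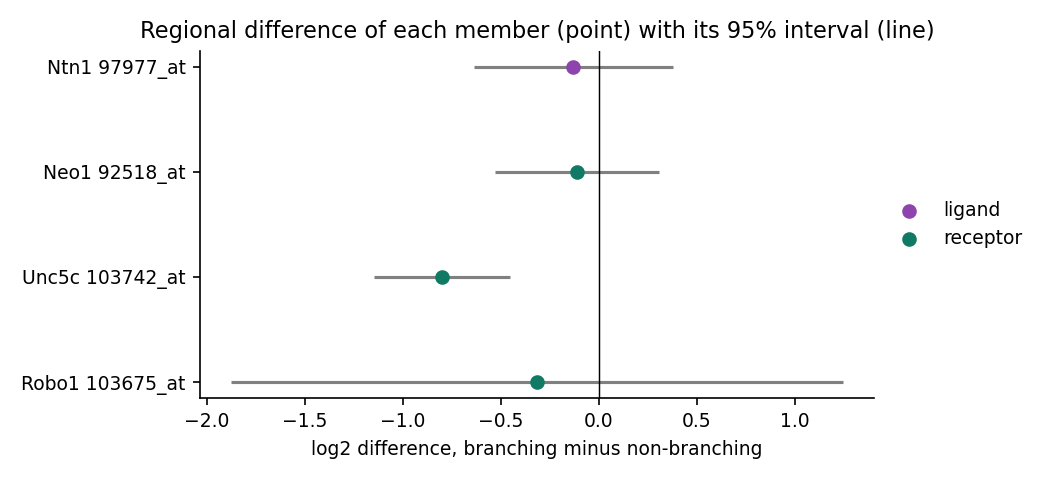
Log2 difference, branching minus non-branching, of the 4 member probe sets that were above background on at least 4 arrays. Lines are 95% intervals of the limma fit. The interval of Unc5c runs from -1.15 to -0.45, those of Ntn1 and Neo1 lie within 0.7 of 0, and that of Robo1 is the widest.

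Ligands were set against receptors with 1 probe set per gene. The ligand side was Ntn1 alone, at -0.13, and the mean log2 difference of the 4 receptors was -0.18. The ligand minus receptor difference was 0.05, smaller than the SD of 0.41 of the same quantity between arrays of a region. Over the genes above background on all 6 arrays, Ntn1, Neo1 and Unc5c, a choice made after seeing the values, it was 0.33, beside an SD of 0.31 for that quantity between arrays of a region. The value over all 5 genes, 0.05 as reported, was -0.01 with a floor of 64. It was -0.21 without branching replicate 2 and -0.15 with non-branching replicate 3 omitted. Among the receptors above background on all arrays, the log2 difference was -0.80 for Unc5c and -0.11 for Neo1, and whether these differ from each other was not tested.

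The rest of the pathway was followed through a list of 72 further genes, from other ligands and receptors to cytoplasmic effectors. Of these, 41 had a probe set of their own and 38 were tested, with 1 higher and 1 lower in branching. The 2 called genes were 5.26% of the 38, against 2.32% of all 6798 genes tested with 1 probe set each. The median log2 difference of the 38 was -0.08. The 2 regions did not overlap for 12 of the 38, and 20.8% of all probe sets tested showed that pattern. That share counts every tested probe set, whereas the 38 are the brightest of their genes, so the comparison is not like for like.

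Both called genes were among the 13 co-receptors and cofactors tested, of which 11 did not pass. Bmp1 encodes a secreted protease of the tolloid family that trims procollagens, and a tolloid relative in Drosophila cleaves Slit. It read 1465.6, 1108.2 and 1078.6 in branching, against 2213.8, 2141.2 and 1904.4 in non-branching. All branching values were lower, and Bmp1 fell by 0.79 ± 0.15 in log2 signal (± SE, limma adjusted p = 0.0265). Its other probe set, 92701_at, differed by -0.82 ± 0.18 (limma adjusted p = 0.0546). Sdc2 encodes syndecan-2, a cell surface heparan sulfate proteoglycan of a family that assists Slit signalling in Drosophila.

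Sdc2 read 944.1, 918.2 and 971.9 in branching, against 520.8, 574.1 and 610.0 in non-branching. All branching values were higher, and Sdc2 rose by 0.74 ± 0.15 (limma adjusted p = 0.0392). A second, less specific Sdc2 probe set, 162215_f_at, was not among those tested. With 1 array left out, Bmp1 was called in 1 of 6 fits, the one without branching replicate 1 (limma adjusted p = 0.0159), and its adjusted p was 0.0757 to 0.107 in the other 5. Sdc2 was called in 0 of 6, at limma adjusted p-values of 0.0881, 0.105 and 0.155 when branching replicate 1, 2 or 3 was omitted, and 0.0948, 0.107 and 0.0976 when non-branching replicate 1, 2 or 3 was omitted. With the replicate number as a block Sdc2 did not pass (limma adjusted p = 0.109) and Bmp1 did (adjusted p = 0.0418).

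Of 24 cytoplasmic effectors tested, 0 were called by limma. An unadjusted limma p under 0.05 was found for 4 of the 24, and for 1362 of all 9316 probe sets tested. The 2 effectors with the smallest p were Evl and Maged1. Evl belongs to the Ena/VASP family of actin regulators, which act downstream of guidance receptors. It read 792.9, 897.6 and 754.9 in branching, against 539.6, 382.4 and 374.9 in non-branching. The regions did not overlap, and the log2 difference was 0.93 ± 0.20 (limma adjusted p = 0.0504), but a second, less specific probe set, 161808_f_at, differed by 0.24 ± 0.22 with overlapping values (limma adjusted p = 0.683).

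Maged1 encodes a MAGE family protein known to bind an UNC5 receptor in rodents, and whether it binds UNC5C was not examined here. It read 5275.0, 5168.7 and 4515.7 in branching, against 6296.2, 6684.0 and 6944.6 in non-branching. The regions again did not overlap, and the log2 difference was -0.42 ± 0.09 (limma adjusted p = 0.0630). The small GTPase genes that relay netrin and Slit signals to actin were bright, with differences of -0.07 ± 0.12 for Rac1, -0.19 ± 0.11 for Cdc42 and 0.01 ± 0.18 for Rhoa, all uncalled (these 3 were picked for their role after their values were seen). Further Rhoa probe sets differed by 0.42 ± 0.20 (limma adjusted p = 0.364) and 0.04 ± 0.29 (adjusted p = 0.968), both with overlapping values. The 1 other receptor on the array, Robo3, which acts in commissural axons of the hindbrain, read 133.5, 110.3 and 114.1 in branching, all at background, against 138.4, 179.2 and 179.0 in non-branching, and was not called (limma adjusted p = 0.630).

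**Figure D4:**
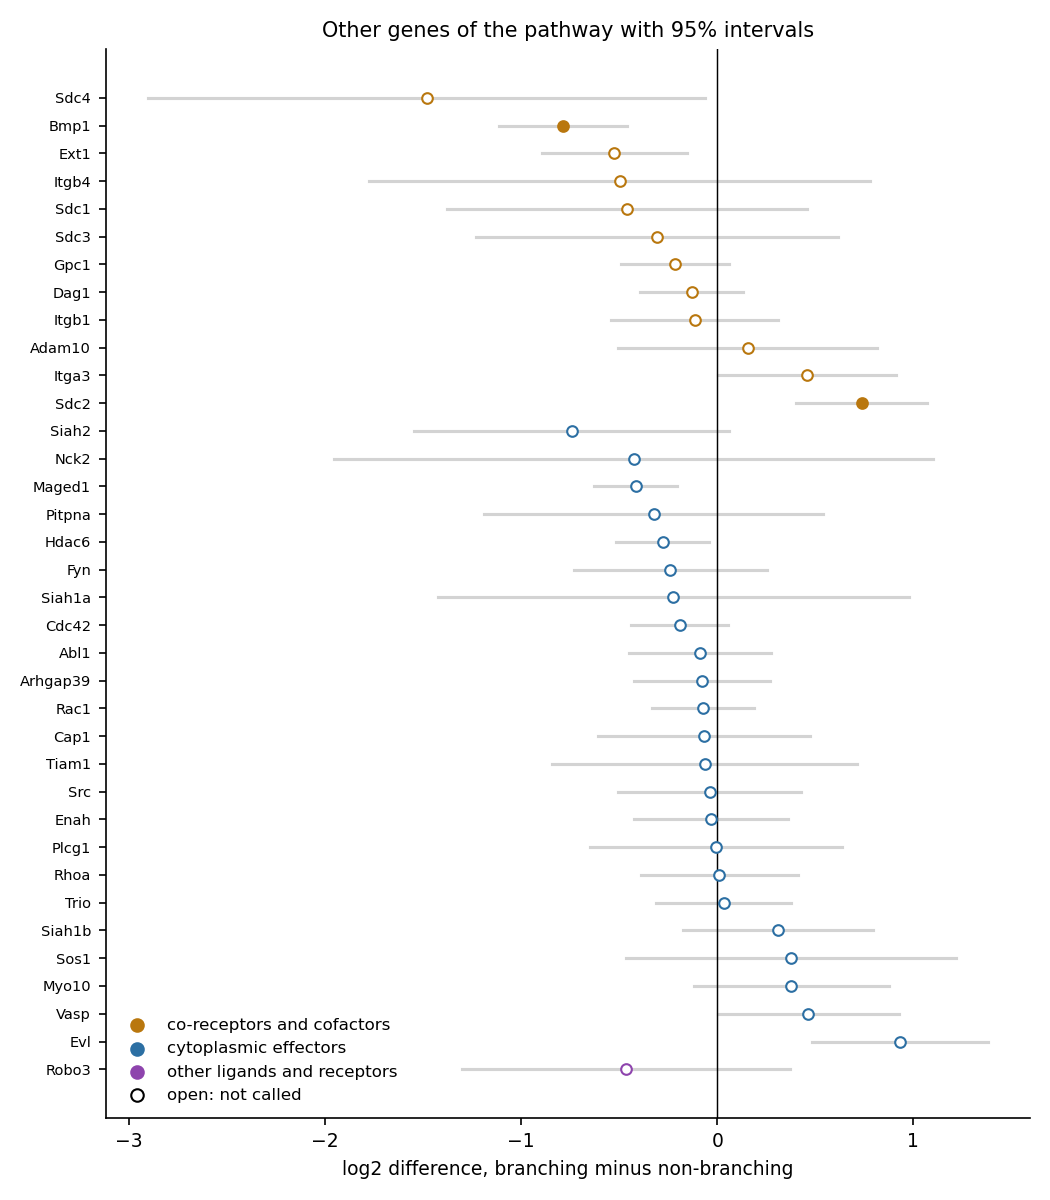
Log2 difference, branching minus non-branching, of the 36 other pathway genes that were tested and above background on at least 1 array. Filled points are called, open points are not, colours mark the 3 sub-lists and lines are 95% intervals. Bmp1 (-0.79) and Sdc2 (0.74) are the filled points, at opposite sides of 0.

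The genes whose log2 signal followed each measured member gene most closely over the 6 arrays were found by Pearson correlation with up to 8294 other probe sets, a description for which no p is given, since a few of so many series of 6 values will lie close. For Unc5c they were Timp2, an inhibitor of metalloproteinases (r = 0.991, log2 difference -0.57), and Abcc5, a transporter gene (r = 0.989, -0.48). For Neo1 they were Tnip1 (r = 0.992) and Tbpl1 (r = 0.984). For the brighter Ntn1 probe set they were Lox, the lysyl oxidase gene read by a less specific probe set (r = 0.976), and Scaf11 (r = 0.971). For Robo1 they were Tspan13 (r = 0.989) and Wdr13 (r = 0.983), and for Dcc Htt (r = 0.991) and Clip1 (r = 0.990), but the values of both members were at or near background.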

How the data were processed

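The authors deposited 1 intensity value per probe set and array, on a linear scale. The steps behind it are not stated in the labels or the table. Members and gene lists were chosen with earlier results of these data known. The 66 control probe sets were left out. Of the other 12422, 10833 had 1 gene symbol, 396 several and 1193 none. Signals were raised to at least 16 before log2, the dimmest 25% by mean were dropped, and limma 3.58.1 (R 4.3.3) tested the other 9316 (lmFit on 2 groups, eBayes with a variance trend, two-sided, Benjamini-Hochberg adjustment). The fit was tested on simulated data. Outside the 10 genes, a gene was represented by its brightest probe set. Named were all members, up to 4 called genes per pathway sub-list (or the 2 with the smallest p), the 2 brightest of each marker list and the 2 genes most like each member gene on its brightest probe set. Of 11 further pathway probe sets that were tested, 0 were called by limma and 3 had the opposite sign (Dag1, Enah and Tiam1). No genome build is given, so no coordinates are printed. The alternatives were a replicate block, quantile normalization, median centring, other filters, floors and thresholds, no variance trend, array weights and single omissions.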

Additional observations from a re-analysis of the deposited data

How the results depend on the processing

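The difference of Unc5c ran from -0.93 to -0.63 in the 14 alternatives that gave it a value. Single omissions could not change its sign, since the values of the regions did not overlap. The replicate block and the filters could not change the difference at all. Unc5c was the only member called in any setting. It was called in 7 of the 10 alternatives that kept all arrays. Among the 7 was the looser threshold of 0.10, which a gene called at 0.05 must pass. The number of members called was 0 with arrays centred on their median, 0 with no filter on dim probe sets and 0 with no variance trend. In each, limma gave 1 member an unadjusted p under 0.05, beside 1310 of 9316, 1512 of 12422 and 1148 of 9316 probe sets. With 1 array left out the number of members called was 0 to 1. The count of called probe sets, 189 as reported, was 114 with the replicate block, 100 with no filter on dim probe sets, 22 with no variance trend and 359 at an adjusted p under 0.10, and 61 to 150 with 1 array left out. The count of other pathway genes called, 2 as reported, was 1 with the replicate block, 1 with no filter, 4 with the dimmer 50% left out, 4 with array weights and 4 at an adjusted p under 0.10. It was 0 with no variance trend (7 of 38 at an unadjusted limma p under 0.05, beside 1148 of all 9316 probe sets), and 0 to 1 with 1 array left out. The cause of these shifts was not tested. The differences of the other 5 member probe sets moved by less than their SD between arrays in all 14 alternatives. In groups this small, leaving out 1 array cannot move a difference by as much as that SD. The replicate block and the filters cannot move it at all, so these settings say nothing about stability. Median centring moves every difference by the same small amount. The other floors hardly touch the brighter Ntn1 probe set and Neo1, whose values lay far above them. Only quantile normalization and array weights, and the other floors for Dcc, Robo1 and the second Ntn1 probe set, could have given a larger shift. Some differences turned positive: the brighter Ntn1 probe set reached 0.02, Robo1 0.57 and the second Ntn1 probe set 0.51. Same-numbered arrays of the 2 regions share only a number. Their deviations correlated at -0.002, 0.013 and -0.015, and not every array was closest to its own number. The number of arrays and, for Dcc, Robo1 and the second Ntn1 probe set, signal near background limit what can be seen.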
